A study of Mus musculus with 27 samples.

Results

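The astrocyte identity genes described here are 40 genes whose transcripts are commonly used to tell astrocytes from other cells of the brain. They were chosen by gene symbol, and all 40 were found among the 54532 genes of the deposited read count table. By role they comprise 8 transcription factors and their partners, 11 surface receptors, channels and adhesion proteins, 5 transporters, 10 metabolic enzymes or their regulators, and 6 secreted or small binding proteins. The 27 libraries came from polyadenylated RNA of mixed glia, that is, cultures of all glial cells grown from the cortex of C57BL/6 mice aged 3 to 6 days. The cultures were treated for 24 h after 14 days of growth. Experiment 1 had 5 groups of 3 libraries: LPS with IFN-gamma and bryostatin, LPS with IFN-gamma, LPS with bryostatin, LPS alone, and untreated glia. Experiment 2 had 4 groups of 3 libraries: IL-4 with bryostatin, IL-4, bryostatin alone, and untreated glia of its own. Bryostatin-1, a macrocyclic lactone that binds protein kinase C, was given at 50 nM. LPS, or lipopolysaccharide, the outer membrane component of gram-negative bacteria that toll-like receptors sense, was given at 100 ng/mL. Interferon gamma (IFN-gamma, a cytokine of T cells and natural killer cells) and interleukin 4 (IL-4, a cytokine of alternative activation) were each given at 20 ng/mL. All groups share the mixed culture, so no group holds astrocytes alone. In whole cultures, fewer astrocytes and less RNA per astrocyte cannot be told apart.

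Astrocytes take up glutamate, GABA and potassium around synapses, feed neurons with lactate and lipids, and line blood vessels with their end feet. Their identity rests on transcription factors such as Sox9 and the nuclear factor I family (Nfia, Nfib, Nfix), which open astrocyte genes as neural stem cells stop making neurons. Exposed to inflammatory signals, astrocytes become reactive: they take on immune genes, and the genes of their resting functions can be reduced.

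Total counts ran from 17230058 to 28687281 per library. Levels are given as CPM, counts divided by the scaled total of their library and multiplied by 1000000, with TMM scaling within each experiment. A floor was set at 3 counts, which equal 0.106 to 0.2 CPM, and levels below it rest on very few reads. Counts were high enough to test for 38 members in experiment 1, all but Slc7a10 and Etnppl, and for 37 in experiment 2, where Hes5 also fell below the filter. The defining astrocyte genes outside the list were abundant: Aqp4, the water channel of astrocyte end feet, averaged 869 ± 77.4 CPM (SD, n = 3) in untreated glia of experiment 2, and Gja1, the astrocyte gap junction protein, 431 ± 110 CPM. Markers of microglia were also present (a summed level of 16 genes of 2036 to 2444 CPM in untreated glia of experiment 1), as were those of neural progenitors (10 genes, 5279 to 7943 CPM) and of mural cells and fibroblasts (10 genes, 2827 to 4526 CPM). Markers that stayed under 0.5 CPM in every library were Neu4 of oligodendrocyte precursors, Mog, Mobp, Ermn and Opalin of oligodendrocytes, Cldn5, Emcn and Erg of endothelium, and Kcnj8 of pericytes.

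Per length, the members spanned a wide range of levels. Cpe, the carboxypeptidase that trims neuropeptides, was the highest member in all 9 groups, with a deposited FPKM of 1354 ± 97.2 (SD, n = 3) in untreated glia of experiment 1. Etnppl, an enzyme of phosphoethanolamine breakdown, was the lowest in all of them: its 27 libraries held 0 to 0.191 CPM, and the LPS with IFN-gamma and the IL-4 groups had 0 counts. Slc7a10, the serine and alanine exchanger of adult astrocytes, was listed at 0 to 0.382 CPM. Hes5, a Notch-driven repressor, reached at most 2.64 CPM. In the untreated groups, 29 of the 40 members stood over 10 FPKM and 4 stood under 1 FPKM.

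Both untreated groups contained a library that went against its label. Untreated libraries were set side by side on one scale, with TMM factors over all 27 libraries. Tril, an adaptor of toll-like receptor signalling, gave 5.96 CPM for the replicate 1 label of experiment 1, where replicates 2 and 3 gave 43.8 and 42.3 CPM. In experiment 2 the split ran the other way, with 38.3 CPM for the replicate 1 label and 6.42 and 7.32 CPM for replicates 2 and 3. Ndrg2, a stress-responsive astrocyte protein, showed the same division, where replicate 1 had 146 CPM and replicates 2 and 3 had 432 and 397 CPM in experiment 1, and replicate 1 had 525 CPM and the others 188 and 160 CPM in experiment 2. F3, the receptor that starts coagulation, was divided the opposite way, since replicate 1 had 366 CPM and the others 198 and 190 CPM in experiment 1, while replicate 1 had 204 CPM and the others 391 and 350 CPM in experiment 2. Over the 38 members averaging at least 1 CPM in untreated glia, the experiment 1 library labelled replicate 1 was nearer to replicates 2 and 3 of the other experiment in 36, and below both replicates of its own group in 31. The experiment 2 library labelled replicate 1 was nearer to the other experiment's replicates 2 and 3 in 31 of 38, and above both of its own in 33. The ependymal marker sum (10 genes) on the scale of each experiment, divided likewise: replicate 1 summed to 260 CPM and the others to 773 and 748 CPM in experiment 1, and replicate 1 to 925 CPM and the others to 283 and 266 CPM in experiment 2. Tril, Ndrg2 and F3 were chosen here after their values were seen. The labels were not changed, and for comparisons that use these libraries the counts of called members are also given without them.

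**Figure D1:**
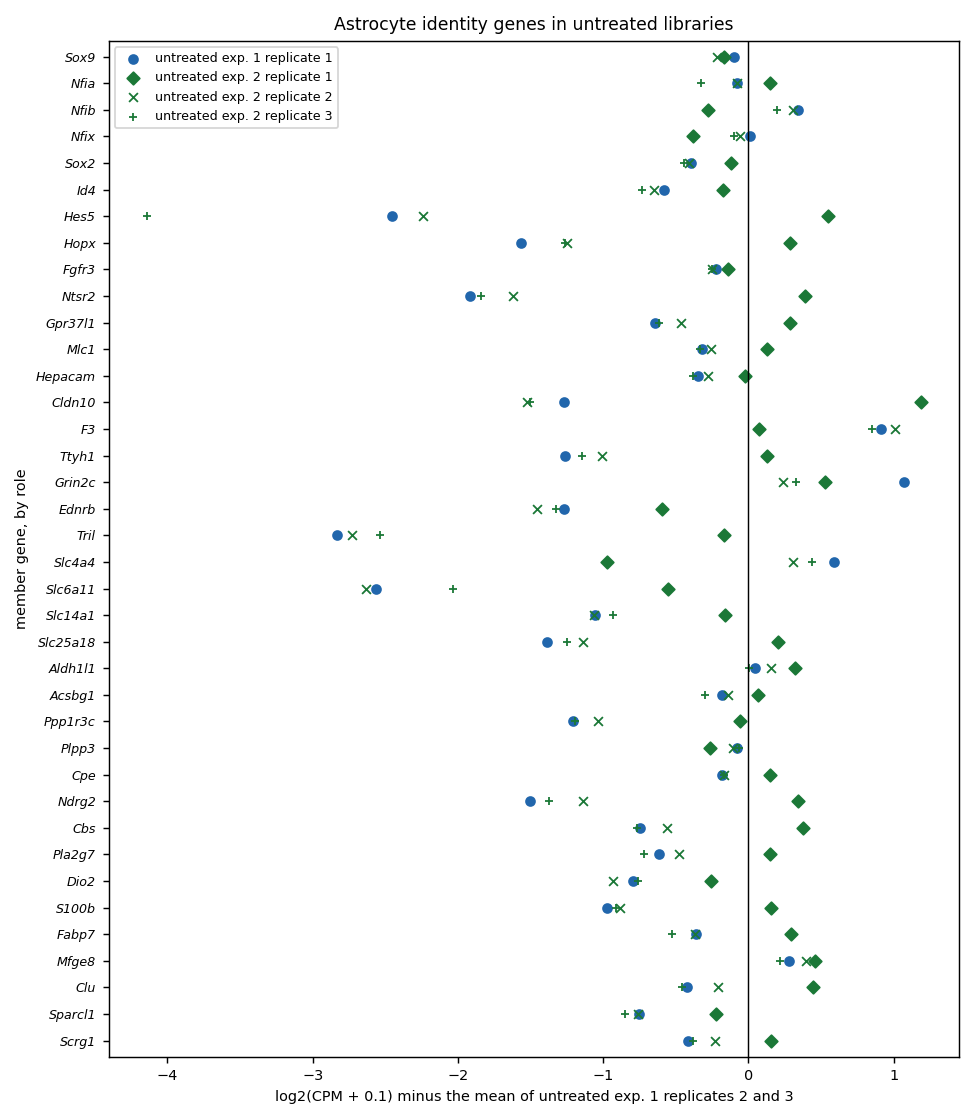
Level of each member (rows, by role) in 4 untreated libraries, as log2(CPM + 0.1) minus the mean of untreated experiment 1 replicates 2 and 3, which lie around the line at 0. The library labelled untreated experiment 1 replicate 1 (filled circles) lies with the crosses of experiment 2 replicates 2 and 3 for most members, while the library labelled untreated experiment 2 replicate 1 (diamonds) lies nearer to 0.

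Replicate 2 of bryostatin alone also stood apart, outside the range of its 2 fellow replicates in 31 of the 35 members at 1 CPM or more, and by over 0.3 on the log2 scale in 12. Replicate 1 of that group lay outside in 25 (7 of them by over 0.3) and replicate 3 in 14 (0 by over 0.3). Replicate 2 of IL-4 with bryostatin lay outside in 25 of 35, by over 0.3 in 2.

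**Figure D2:**
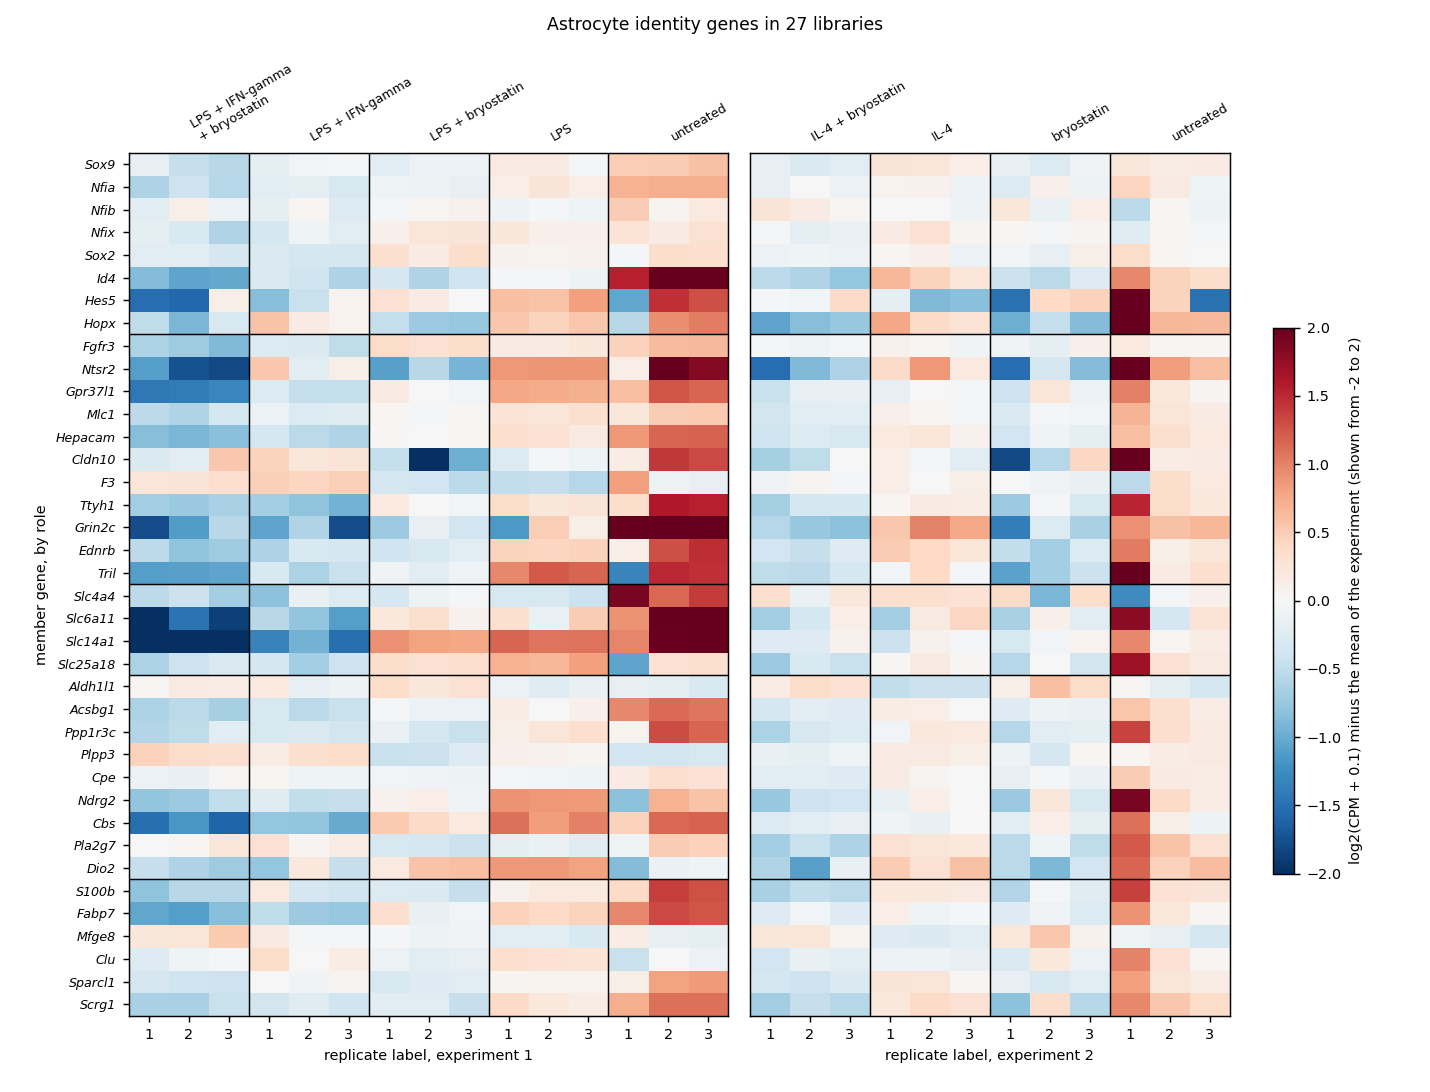
Each row is a member that was tested in experiment 1, ordered by role (transcription factors, receptors and adhesion proteins, transporters, enzymes, secreted proteins), and each column is 1 of 27 libraries. Colour gives log2(CPM + 0.1) minus the mean of the member within its experiment. Id4 and Slc14a1 are high in untreated replicates 2 and 3 of experiment 1 (371 and 379 CPM, and 64.5 and 66.4 CPM) and low in the groups with LPS and IFN-gamma.

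Promoter sequence is shown for members that moved in different ways, chosen after their values were seen: Id4, which fell with LPS and with LPS and IFN-gamma, and F3, which fell with LPS and rose when IFN-gamma was added to LPS. In the main fits F3 was not called with bryostatin in any setting. RefSeq windows of 300 bases (GRCm38.p6, 250 bases before to 50 after the start) were matched for 33 of the 40 members, in 43 windows. Motifs searched on both strands included TGANTCA (AP-1, a factor that protein kinase C activates), TGGGAA (RBPJ of the Notch pathway) and TTGGCA (a half-site of nuclear factor I). The windows below read 5′ to 3′ on the strand of the gene, with the motif matches in capitals. They are chr13:48260866-48261165 on the plus strand (Id4, 1 RBPJ match as its reverse complement, TTCCCA) and chr3:121723287-121723586 on the plus strand (F3, 2 AP-1 matches).
Id4: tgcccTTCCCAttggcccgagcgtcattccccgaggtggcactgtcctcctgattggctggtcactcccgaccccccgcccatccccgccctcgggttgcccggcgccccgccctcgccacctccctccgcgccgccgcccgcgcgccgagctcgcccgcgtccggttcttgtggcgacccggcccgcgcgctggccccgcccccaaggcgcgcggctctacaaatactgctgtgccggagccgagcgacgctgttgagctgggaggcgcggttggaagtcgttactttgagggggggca
F3: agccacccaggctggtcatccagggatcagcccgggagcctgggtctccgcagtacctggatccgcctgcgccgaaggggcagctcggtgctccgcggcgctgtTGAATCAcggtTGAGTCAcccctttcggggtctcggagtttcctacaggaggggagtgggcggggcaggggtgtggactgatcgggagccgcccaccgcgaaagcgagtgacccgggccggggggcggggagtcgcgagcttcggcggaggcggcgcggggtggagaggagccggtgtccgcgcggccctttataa

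The AP-1 motif was present in 4.65% of the members' windows (2 of 43), against 7.81% of all 32851 RefSeq windows of this length. For the RBPJ motif the shares were 30.2% (13 of 43) against 25.6%, and for the nuclear factor I half-site 6.98% (3 of 43) against 14.1%. These are letter matches within the window and not measured binding.

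LPS, which asks how glia respond to a bacterial signal, lowered 21 of the 38 tested members of the identity list and raised 4. The calls are against untreated glia (edgeR quasi-likelihood test, adjusted p under 0.05 over all genes), and 18.8% of all 16073 genes tested were called lower and 19.5% higher. The median log2 fold change of the members was -0.46, against -0.008 over all genes. Among transcription factors 4 of 8 fell and 0 rose, and among receptors, channels and adhesion proteins 6 of 11 fell and 0 rose. Of 4 transporters tested 3 fell and 1 rose, of 9 enzymes 4 fell and 2 rose, and of 6 secreted or small binding proteins 4 fell and 1 rose.

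Id4, an inhibitor of basic helix-loop-helix factors that keeps neural precursors undifferentiated, had 85.4, 85.4 and 81.6 CPM with LPS, against 257, 371 and 379 CPM in untreated glia. The groups did not overlap, and the log2 fold change was -1.996 ± 0.13 (SE, adjusted p = 3.2e-09). The glial determinants Nfia (-0.54 ± 0.07), Sox9 (-0.41 ± 0.09) and Nfib (-0.34 ± 0.11) fell by less on the log2 scale, and Nfix (-0.10 ± 0.10) and Sox2 (-0.14 ± 0.09) were not called. The call of Nfib was lost without LPS replicate 1 or 3 or untreated replicate 1, with an adjusted p of up to 0.114 over all alternatives.

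Slc6a11, the GABA transporter GAT-3 of astrocytes, had 1.87, 1.33 and 2.13 CPM with LPS, against 2.84, 17.2 and 16.6 CPM in untreated glia. Its log2 fold change was -2.79 ± 0.51 (adjusted p = 0.00056), with the untreated library labelled replicate 1 close to the LPS libraries. Slc4a4, the sodium bicarbonate cotransporter, had 84.5, 84.8 and 78.2 CPM with LPS, against 393, 234 and 277 CPM in untreated glia. Its log2 fold change was -1.87 ± 0.18 on the log2 scale (adjusted p = 1.5e-06). Slc14a1, the urea transporter, fell by 0.63 ± 0.20 on the log2 scale (adjusted p = 0.025), and its untreated library labelled replicate 1, at 32.3 CPM, lay below all 3 LPS libraries at 36.5, 34.5 and 34.8 CPM. Its call was lost without any 1 of the LPS libraries or untreated replicate 2 or 3 (adjusted p up to 0.12 over all alternatives).

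Dio2, the deiodinase with which astrocytes make active thyroid hormone for neurons, rose. It stood at 62.9, 62.6 and 60.3 CPM with LPS, against 18.7, 31.2 and 32.2 CPM in untreated glia, a log2 fold change of 1.18 ± 0.22 (adjusted p = 0.00082). Plpp3, a lipid phosphatase of the cell surface, had 843, 831 and 814 CPM with LPS, against 602, 611 and 631 CPM in untreated glia, and rose by 0.43 ± 0.08 (adjusted p = 0.00031). Clu, the secreted chaperone clusterin, had 2840, 2750 and 2730 CPM with LPS, against 1660, 2270 and 2070 CPM in untreated glia, and rose by 0.47 ± 0.11 (adjusted p = 0.0037). No library of these 3 genes in one group crossed into the range of the other. Slc25a18, a mitochondrial glutamate carrier, had 331, 324 and 359 CPM with LPS, against 98.7, 252 and 254 CPM in untreated glia, and rose by 0.74 ± 0.25 (adjusted p = 0.032). That call was lost on leaving out any 1 of the LPS libraries, with an adjusted p of up to 0.164 over all alternatives.

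Other members that fell were Ttyh1, a volume-regulated chloride channel protein, at 94.9, 86.4 and 87.8 CPM with LPS, against 94.3, 224 and 218 CPM in untreated glia (-0.99 ± 0.23, adjusted p = 0.0034). Here the groups overlapped through the untreated library labelled replicate 1. Acsbg1, an acyl-CoA synthetase, fell by 0.97 ± 0.08 on the log2 scale, S100b, the calcium-binding astrocyte marker, by 0.92 ± 0.21, Hepacam, the adhesion partner of Mlc1, by 0.81 ± 0.09, and Fabp7, the fatty acid carrier of radial glia, by 0.75 ± 0.12. F3, whose promoter is shown above, and Pla2g7 were among the 21 as well. Grin2c, an NMDA receptor subunit under 5 CPM in all libraries, had a log2 fold change of -3.40 ± 0.55. Aldh1l1, the folate enzyme most used to label astrocytes, was not called (270, 248 and 264 CPM with LPS, against 262, 257 and 238 CPM in untreated glia; 0.05 ± 0.09, adjusted p = 0.72).

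Without the untreated library labelled replicate 1, 27 members were called lower and 4 higher, with a median of -0.51. Ntsr2 (a neurotensin receptor), Gpr37l1, Mlc1, Sox2, Hopx, Ednrb and Tril then also counted as lower, and Nfib was no longer called, at -0.20 (adjusted p = 0.11). Slc25a18 stood at 0.42 (adjusted p = 0.0019), F3 at -0.37 (adjusted p = 0.00038) and Slc6a11 at -3.25 (adjusted p = 7.9e-10). In that fit 42.8% of all genes were called, against 38.4% with the library. Dio2 stood at 0.97 (adjusted p = 0.0012) and Id4 at -2.15 (adjusted p = 7e-13) in that fit.

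LPS with IFN-gamma, against the same untreated glia, lowered 27 of 38 members and raised 2, while 28.6% of all genes were called lower and 29.5% higher. The members' median log2 fold change was -0.95, against -0.005 over all genes. Calls covered 6 of 8 transcription factors, 9 of 11 receptors, channels and adhesion proteins and 3 of 4 transporters, all of them lower. Among enzymes 5 of 9 fell and 1 rose, and among secreted or small binding proteins 4 of 6 fell and 1 rose. The comparison shares its untreated libraries with that of LPS alone.

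Slc14a1 had 6.39, 8.43 and 5.67 CPM with LPS and IFN-gamma, against 32.3, 64.5 and 66.4 CPM in untreated glia, a log2 fold change of -2.99 ± 0.23 (adjusted p = 4.7e-08). Slc6a11 was low at 0.968, 0.811 and 0.637 CPM, against 2.84, 17.2 and 16.6 CPM in untreated glia (-3.91 ± 0.58, adjusted p = 4.1e-05). Id4 had 72.1, 66.4 and 57.3 CPM, against 257, 371 and 379 CPM in untreated glia (-2.36 ± 0.13, adjusted p = 2.6e-10). All 3 stayed below every untreated library. Ttyh1 had 45.8, 42.1 and 38.1 CPM, against 94.3, 224 and 218 CPM in untreated glia (-2.09 ± 0.24, adjusted p = 4.8e-06). Fabp7 (-1.85 ± 0.13), Cbs, the transsulfuration enzyme (-1.83 ± 0.19), Hepacam (-1.57 ± 0.09), Acsbg1 (-1.50 ± 0.08) and Gpr37l1, an orphan receptor of astrocytes (-1.44 ± 0.13), also fell.

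Plpp3 rose again, with 876, 982 and 1010 CPM with LPS and IFN-gamma, against 602, 611 and 631 CPM in untreated glia (0.64 ± 0.08, adjusted p = 3.1e-06). Clu had 2920, 2270 and 2490 CPM, against 1660, 2270 and 2070 CPM in untreated glia (0.35 ± 0.11, adjusted p = 0.014). Its groups overlapped, and without replicate 1 of LPS with IFN-gamma it was not called, which left 1 member higher. Aldh1l1 (0.20 ± 0.09, adjusted p = 0.065) and Dio2 (0.04 ± 0.23, adjusted p = 0.88) were not called. Without the untreated library labelled replicate 1, 32 members were called lower and 5 higher. In that fit 60.9% of all genes were called, against 58.1% with the library. The added rises were F3 at 0.59 (adjusted p = 1.3e-06), Mfge8 at 0.23 (adjusted p = 0.032) and Aldh1l1 at 0.23 (adjusted p = 0.041), and the added falls were Slc25a18, Hopx, Pla2g7, Cldn10 and Hes5.

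**Figure D3:**
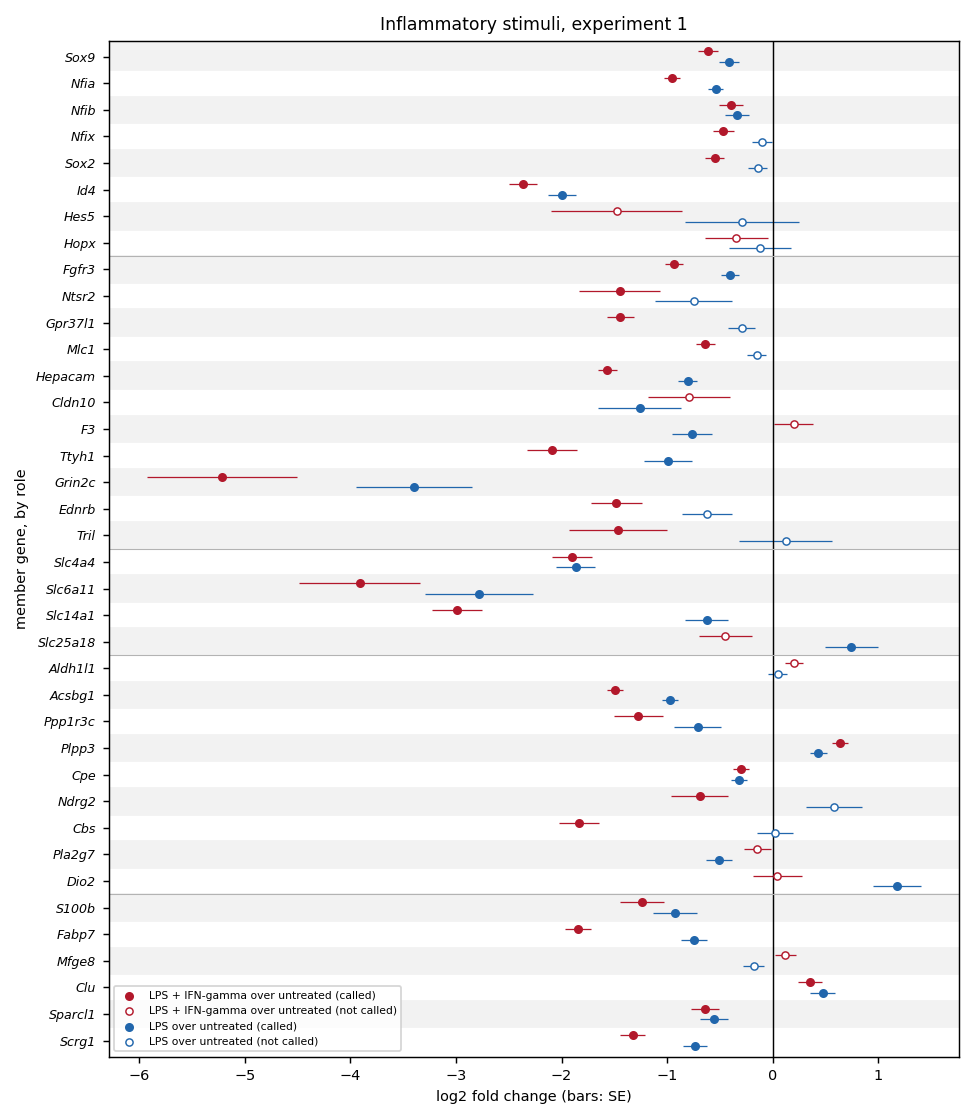
Log2 fold change of each member tested in experiment 1 (rows, by role) for LPS with IFN-gamma over untreated glia (red) and LPS over untreated glia (blue), with bars of 1 SE. Filled points were called, 29 with LPS and IFN-gamma and 25 with LPS, and open points were not. Most points lie left of the line at 0, with Plpp3 and Clu to its right in both comparisons and Dio2 and Slc25a18 with LPS.

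LPS with IFN-gamma set against LPS alone asks what the interferon adds, and uses no untreated library in the contrast. Of 38 members 19 fell and 4 rose, while 16.8% of all genes were called lower and 19.2% higher, and the median was -0.50 against -0.007 over all genes. Slc14a1 had 6.39, 8.43 and 5.67 CPM with both agents, against 36.5, 34.5 and 34.8 CPM with LPS alone (-2.37 ± 0.23, adjusted p = 1.8e-06). Cbs had 5.42, 5.31 and 4.59 CPM with both, against 20, 16.7 and 18.8 CPM with LPS alone (-1.86 ± 0.19, adjusted p = 1.1e-06). For both genes every library with IFN-gamma lay below every library without it. Tril had 11.8, 9.36 and 10.6 CPM with both, against 28.5, 34.2 and 32.6 CPM with LPS alone (-1.59 ± 0.47, adjusted p = 0.017). Its call was lost on leaving out any 1 of the libraries of LPS with IFN-gamma, and with no filter on low counts (adjusted p up to 0.0652 over all alternatives). Ndrg2 had 212, 180 and 183 CPM with both, against 472, 460 and 453 CPM with LPS alone (-1.27 ± 0.27, adjusted p = 0.0023). Slc25a18 (-1.19 ± 0.25), Dio2 (-1.13 ± 0.23), Gpr37l1 (-1.15 ± 0.13) and Fabp7 (-1.10 ± 0.12) fell too, and Slc4a4 was not called (-0.03 ± 0.18, adjusted p = 0.91).

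F3 had 280, 270 and 279 CPM with both agents, against 143, 147 and 136 CPM with LPS alone, and rose by 0.96 ± 0.19 (adjusted p = 0.0011). The libraries with both agents lay well apart from those with LPS alone. Pla2g7, a secreted phospholipase that breaks down platelet-activating factor, had 376, 314 and 335 CPM with both, against 268, 275 and 255 CPM with LPS alone (0.36 ± 0.13, adjusted p = 0.034). Mfge8, a bridge for the uptake of dying cells, had 139, 121 and 121 CPM with both, against 106, 105 and 98.9 CPM with LPS alone (0.30 ± 0.10, adjusted p = 0.028). Plpp3 had 876, 982 and 1010 CPM with both, against 843, 831 and 814 CPM with LPS alone (0.20 ± 0.08, adjusted p = 0.049), and its sign changed to -0.03 (adjusted p = 0.783) when library totals replaced TMM. The number called higher was 1 on leaving out LPS replicate 1, 2 or 3, and 2 on leaving out replicate 1 or 3 of LPS with IFN-gamma, and F3 was called in each. In these fits 28.1% to 31.9% of all genes were called, against 36% with all libraries. With the untreated library labelled replicate 1 left out of the fit, 23 members were called lower and 4 higher. In that fit 42.8% of all genes were called, against 36% with the library.

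**Figure D4:**
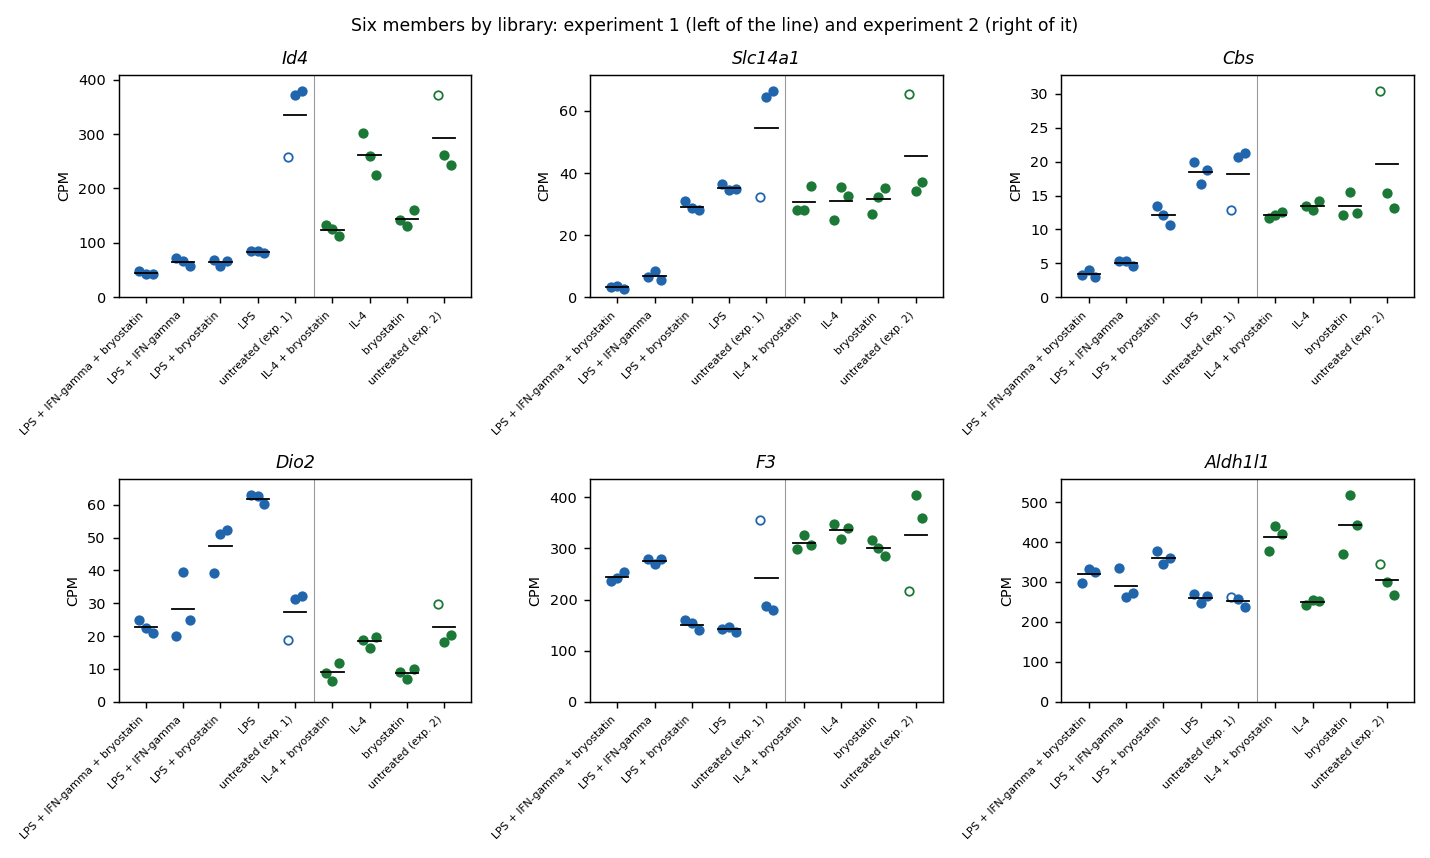
CPM in each library (points) and group mean (bars) of 6 members, with experiment 1 left of the vertical line and experiment 2 right of it, and treated groups left of their untreated group. Open points are the untreated libraries labelled replicate 1. Id4 and Slc14a1 are low with LPS and IFN-gamma, Dio2 peaks with LPS at 60.3 to 62.9 CPM, and Aldh1l1 is higher in the bryostatin groups of experiment 2 than in IL-4 or untreated glia.

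Other cell type markers moved in the same comparisons. Of all genes, 18.8% were called lower and 19.5% higher with LPS, and 28.6% and 29.5% with LPS and IFN-gamma. The summed level of 16 microglia markers was 1280 to 1394 CPM with LPS and 991 to 1139 CPM with LPS and IFN-gamma, against 2036 to 2444 CPM in untreated glia, with 12 called lower and 3 higher for LPS. That of 10 ependymal markers was 518 to 540 CPM with LPS and 439 to 514 CPM with LPS and IFN-gamma, against 260 to 773 CPM in untreated glia, with 4 and 8 called lower and 1 higher in each. The 10 neural progenitor markers summed to 3731 to 3966 CPM with LPS and 4031 to 4560 CPM with both agents, against 5279 to 7943 CPM in untreated glia. Oligodendrocyte precursor markers (10 genes) summed to 564 to 601 CPM with LPS and 260 to 269 CPM with both agents, against 609 to 824 CPM in untreated glia. Mural and fibroblast markers (10 genes) summed to 5389 to 6422 CPM with LPS and 3357 to 5480 CPM with both agents, against 2827 to 4526 CPM in untreated glia. Oligodendrocyte markers (10 genes, of which 6 were tested) summed to 263 to 273 CPM with LPS and 182 to 219 CPM with both agents, against 204 to 366 CPM in untreated glia. Neuron markers (10 genes) summed to 293 to 309 CPM with LPS and 372 to 386 CPM with both agents, against 344 to 403 CPM in untreated glia, and endothelial markers (10 genes) to 45.3 to 47.9 CPM with LPS and 52.5 to 73.3 CPM with both agents, against 36.1 to 44.2 CPM in untreated glia. The part of these cell types in the members' changes was not tested.

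Bryostatin was added in 4 settings at the same dose and time, which asks how a protein kinase C modulator acts on resting, IL-4-treated and inflamed glia. In each, more members were called lower than higher, and Aldh1l1 was called higher in 3 of the 4. Against untreated glia of experiment 2, bryostatin alone lowered 11 of 37 members and raised 1, while 1.51% of all 15604 genes were called lower and 2.11% higher. With IL-4, against IL-4 alone, 6 of 37 fell and 1 rose, while 1.42% of all genes were called lower and 2.7% higher. With LPS, against LPS alone, 8 of 38 fell and 1 rose, while 3.55% of all genes were called lower and 3.35% higher. With LPS and IFN-gamma, against both without bryostatin, 6 of 38 fell and 0 rose, while 1.58% of all genes were called lower and 1.8% higher. The members' medians were -0.59, -0.35, -0.36 and -0.28 in that order, against 0.005, 0.007, 0 and -0.012 over all genes.

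Aldh1l1 had 369, 517 and 443 CPM with bryostatin alone, against 346, 300 and 268 CPM in untreated glia (0.54 ± 0.13, adjusted p = 0.05 as rounded and just under the threshold). In glia with IL-4 it had 378, 440 and 419 CPM with bryostatin, against 242, 254 and 253 CPM without it (0.72 ± 0.13, adjusted p = 0.013). In glia with LPS it had 377, 345 and 361 CPM with bryostatin, against 270, 248 and 264 CPM without it (0.47 ± 0.09, adjusted p = 0.0038). In these 3 settings every bryostatin library lay above every library of its comparison group. With LPS and IFN-gamma the groups overlapped, at 298, 333 and 326 CPM with bryostatin, against 335, 262 and 272 CPM without it (0.14 ± 0.09, adjusted p = 0.53). Bryostatin's effect on Aldh1l1 differed between the LPS settings by -0.33 ± 0.13 on the log2 scale, LPS with IFN-gamma over LPS, which was not called (adjusted p = 0.6). The call with bryostatin alone was lost on leaving out bryostatin replicate 2 or 3 or untreated replicate 2 or 3 (adjusted p up to 0.356 over all alternatives). That with IL-4 was lost on leaving out IL-4 replicate 1 or 2 or replicate 2 or 3 of IL-4 with bryostatin (adjusted p up to 0.0716), and that with LPS was kept throughout (adjusted p up to 0.0279).

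In experiment 2, Id4, Dio2 and Pla2g7 fell with bryostatin alone and with IL-4. Id4 had 142, 131 and 160 CPM with bryostatin alone, against 372, 261 and 244 CPM in untreated glia (-1.02 ± 0.17, adjusted p = 0.0089). With IL-4 it had 133, 125 and 112 CPM with bryostatin, against 302, 259 and 225 CPM without it (-1.08 ± 0.17, adjusted p = 0.0054), and neither pair of groups overlapped. The call of Id4 with IL-4 held in every alternative, and that with bryostatin alone in all but the fit of only the groups compared (adjusted p = 0.151). Dio2 had 9.09, 7.03 and 10.1 CPM with bryostatin alone, against 29.7, 18.1 and 20.2 CPM in untreated glia (-1.38 ± 0.25, adjusted p = 0.015). With IL-4 it had 8.67, 6.19 and 11.9 CPM with bryostatin, against 18.9, 16.4 and 19.8 CPM without it (-1.04 ± 0.25, adjusted p = 0.039). Every bryostatin library thus lay below every library of its comparison group for both genes. Pla2g7 had 155, 213 and 159 CPM with bryostatin alone, against 528, 333 and 279 CPM in untreated glia (-1.11 ± 0.21, adjusted p = 0.017). With IL-4 it had 141, 166 and 146 CPM with bryostatin, against 278, 265 and 261 CPM without it (-0.83 ± 0.21, adjusted p = 0.049). Hepacam, Sox9 and the low Grin2c were also called lower in both comparisons: Hepacam at -0.59 ± 0.12 alone and -0.51 ± 0.12 with IL-4 (adjusted p = 0.023 and 0.037), Sox9 at -0.35 ± 0.09 and -0.43 ± 0.09, and Grin2c at -1.51 ± 0.30 and -1.58 ± 0.29. With IL-4, the calls of Pla2g7 and Hepacam were lost on leaving out any 1 of the 6 libraries, and that of Dio2 without any but replicate 3 of IL-4 with bryostatin, with adjusted p up to 0.182, 0.147 and 0.141 over all alternatives. With bryostatin alone, Sox9 lost its call on leaving out any 1 library (adjusted p up to 0.399), Dio2 without bryostatin replicate 1 (up to 0.125), and Pla2g7 and Hepacam without bryostatin replicate 1 or 3 (up to 0.239 and 0.283). Grin2c lost its call there without bryostatin replicate 1 or 3 (up to 0.256). With IL-4, Sox9 lost its call on leaving out any but IL-4 replicate 3 (up to 0.0991). Grin2c lost its call without IL-4 replicate 2 or any 1 library of IL-4 with bryostatin (up to 0.0752).

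With IL-4, Hepacam had 153, 166 and 161 CPM with bryostatin, against 231, 239 and 214 CPM without it. The bryostatin libraries were all lower. With bryostatin alone, Ntsr2 had 1.63, 3.84 and 2.63 CPM, against 36.3, 8.72 and 7.41 CPM in untreated glia (-2.69 ± 0.59, adjusted p = 0.031). Hopx, a homeodomain protein of neural stem cells and astrocytes, had 4.41, 6.32 and 4.8 CPM with bryostatin alone, against 42.2, 14 and 13.8 CPM in untreated glia (-2.17 ± 0.40, adjusted p = 0.015). For Ntsr2 and Hopx the untreated library labelled replicate 1 was far above the other untreated libraries, and without it the log2 fold changes were -1.60 (adjusted p = 0.032) and -1.45 (adjusted p = 0.0026). Ednrb, the endothelin receptor (-1.001 ± 0.21), Sparcl1, a synapse-organising secreted protein (-0.66 ± 0.16), and Acsbg1 (-0.51 ± 0.11) were the other members called lower. Without that untreated library Ednrb stood at -0.68 (adjusted p = 0.022) and Sparcl1 at -0.44 (adjusted p = 0.042). Ntsr2 and Hopx lost their calls without bryostatin replicate 1 or 3 (adjusted p up to 0.271 and 0.211), as did Acsbg1 (up to 0.317). Ednrb and Sparcl1 lost theirs without bryostatin replicate 1, 2 or 3 (up to 0.271 and 0.337).

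With LPS, Gpr37l1 had 189, 169 and 163 CPM with bryostatin, against 289, 282 and 278 CPM without it (-0.70 ± 0.13, adjusted p = 0.0025). With LPS and IFN-gamma it had 62.7, 64.4 and 68.4 CPM with bryostatin, against 140, 122 and 121 CPM without it (-0.97 ± 0.13, adjusted p = 0.00043). In both settings all bryostatin libraries were below the others, and the call was kept in every alternative run. Ntsr2 had 2.8, 4.08 and 3.13 CPM with LPS and bryostatin, against 11.1, 11.3 and 11.3 CPM with LPS (-1.74 ± 0.41, adjusted p = 0.019). Hopx had 11.2, 9.46 and 9.24 CPM with LPS and bryostatin, against 22.9, 21.3 and 22.7 CPM with LPS (-1.16 ± 0.31, adjusted p = 0.036). Cbs had 13.4, 12.2 and 10.7 CPM with LPS and bryostatin, against 20, 16.7 and 18.8 CPM with LPS (-0.61 ± 0.17, adjusted p = 0.043). The bryostatin libraries were lower without overlap in all 3 genes, but each call was lost on leaving out any 1 of the 6 libraries, with adjusted p up to 0.0907, 0.131 and 0.176 over all alternatives. Scrg1 (-0.55 ± 0.12), Clu (-0.47 ± 0.11), Plpp3 (-0.45 ± 0.08) and Nfia (-0.29 ± 0.07) were the other falls, and Plpp3 was called in every alternative. Clu lost its call on leaving out any 1 of the 6 libraries (adjusted p up to 0.117), and Nfia on leaving out any but LPS replicate 3 (up to 0.11). Scrg1 lost its call without LPS replicate 1 or LPS with bryostatin replicate 3 (up to 0.13).

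With LPS and IFN-gamma, Slc14a1 had 3.34, 3.62 and 2.6 CPM with bryostatin, against 6.39, 8.43 and 5.67 CPM without it (-1.09 ± 0.28, adjusted p = 0.046). Id4 had 48.2, 42.3 and 43.2 CPM with bryostatin, against 72.1, 66.4 and 57.3 CPM without it (-0.55 ± 0.13, adjusted p = 0.029). Fgfr3, a growth factor receptor of astrocyte precursors, had 45.9, 43.4 and 38.6 CPM with bryostatin, against 59.3, 58.7 and 50 CPM without it (-0.39 ± 0.09, adjusted p = 0.021). The bryostatin libraries were lower without overlap for each of them. Hepacam (-0.38 ± 0.09) and Nfia (-0.29 ± 0.07) were the remaining calls. Hepacam lost its call on leaving out any but replicate 3 of LPS with IFN-gamma (adjusted p up to 0.12 over all alternatives). Nfia lost its call on leaving out any but replicate 2 of the bryostatin group (up to 0.182). Slc14a1 lost its call on leaving out any 1 of the 6 libraries, Id4 on leaving out any but replicate 3 of LPS with IFN-gamma, and Fgfr3 without LPS with IFN-gamma replicate 1 or 2 or the bryostatin group's replicate 2 or 3, with adjusted p up to 0.183, 0.124 and 0.0939 over all alternatives.

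**Figure D5:**
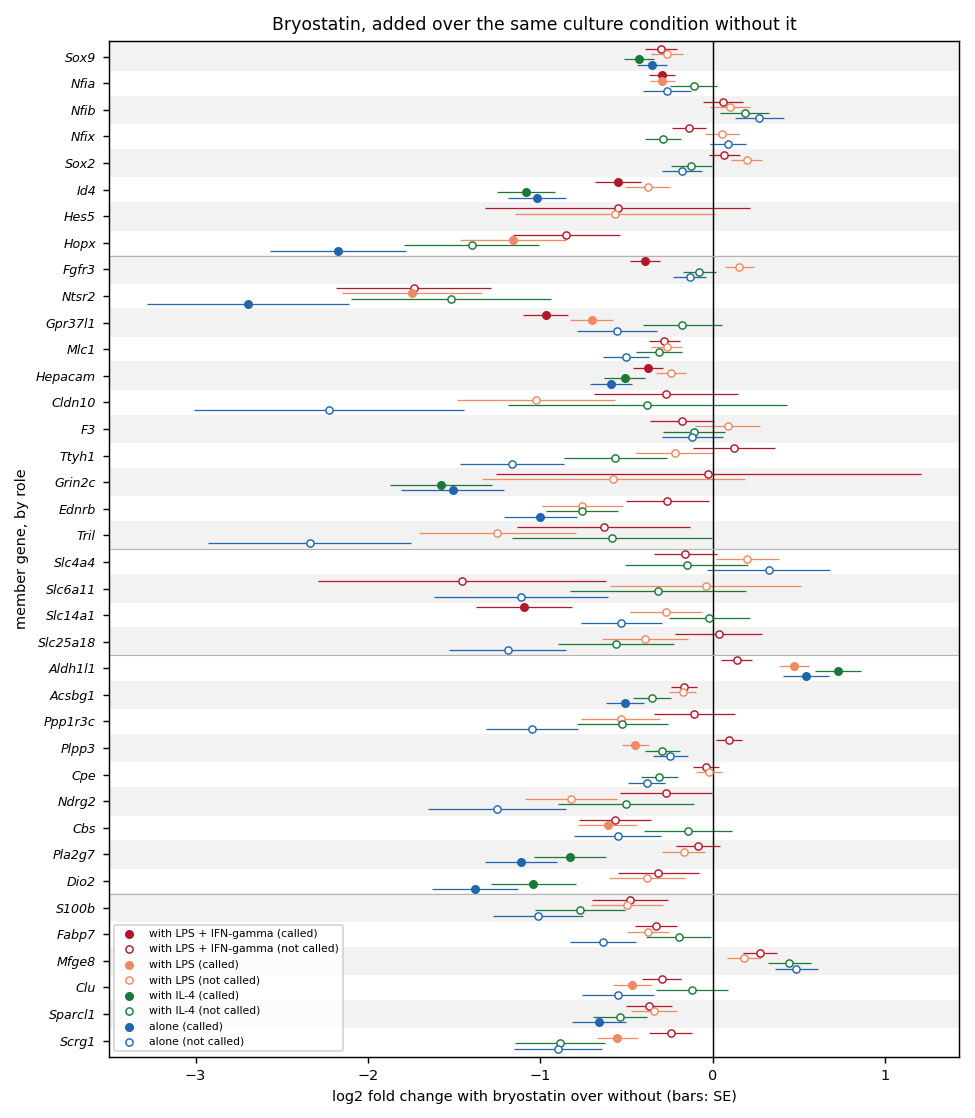
Log2 fold change of each member with bryostatin over the same condition without it, with bars of 1 SE, in glia with LPS and IFN-gamma (red), with LPS (orange), with IL-4 (green) and with nothing else (blue). Filled points were called. Most points lie left of the line at 0 in all 4 settings, and Aldh1l1 lies right of it in all 4.

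The calls of bryostatin changed when single libraries were left out, among members and over all genes. With LPS, the number called lower was 2 to 4 on leaving out any 1 library: 2 without LPS replicate 1 or LPS with bryostatin replicate 3, 3 without LPS replicate 2 or LPS with bryostatin replicate 2, and 4 without LPS replicate 3 or LPS with bryostatin replicate 1. In those fits 3.58% to 4.19% of all genes were called in either direction, against 6.89% with all libraries. With LPS and IFN-gamma the number lower was 1 without LPS with IFN-gamma replicate 1 or 2 or the bryostatin group's replicate 3. It was 2 without that group's replicate 2, 3 without its replicate 1, and 4 without LPS with IFN-gamma replicate 3. There 1.47% to 2.64% of all genes were called in either direction, against 3.38% with all libraries. For bryostatin alone the number lower was 1 without bryostatin replicate 1, 2 without bryostatin replicate 3, and 18 without untreated replicate 3. In those fits 1.18%, 1.66% and 5.16% of all genes were called in either direction, against 3.62% with all libraries. With IL-4 it was 1 without IL-4 replicate 2 or replicate 1 or 2 of IL-4 with bryostatin, 2 without IL-4 replicate 1 or IL-4 with bryostatin replicate 3, and 3 without IL-4 replicate 3. Leaving the untreated library labelled replicate 1 out of the fit had the opposite effect: 19 members were then called lower and 1 higher with LPS, 16 lower and 1 higher with LPS and IFN-gamma, and 18 lower and 2 higher with IL-4. The share of all genes called in either direction was larger in those fits too, at 13.1%, 8.41% and 8.54% in that order, against 6.89%, 3.38% and 4.13% with the library. For bryostatin alone, 11 were lower and 1 higher without that library, with a median of -0.36, while 2.7% of all genes were called. Without it and without the second replicate of both bryostatin groups, 24 were lower and 3 higher for bryostatin alone, and 21 lower and 2 higher with IL-4, while 14.5% and 18.7% of all genes were called, against 3.62% and 4.13% with these libraries. In those fits Mfge8 was called higher beside Aldh1l1, and with bryostatin alone Slc4a4 too at 0.31 (adjusted p = 0.0068). Mfge8 stood at 0.39 (adjusted p = 0.0036) for bryostatin alone and 0.40 (adjusted p = 0.001) with IL-4. The labels give no ground for leaving out these 3 libraries, which were picked by their values. Replicate 2 of IL-4 with bryostatin lay outside its fellow replicates in 25 of 35 members. The same held for replicate 1 of bryostatin alone, which was kept.

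Bryostatin's effect with LPS and IFN-gamma was set against its effect with LPS. No member was called (0 higher and 0 lower of 38), while 0.118% of all genes were called. At an unadjusted p under 0.05 there were 4 of 38 members and 1021 of 16073 genes, and DESeq2 called 1 higher and 1 lower. The members with the smallest p were Plpp3 (0.54 ± 0.11, adjusted p = 0.089) and Fgfr3 (-0.55 ± 0.12, adjusted p = 0.15), chosen after their values were seen. With the untreated library labelled replicate 1 left out of the fit, both were called, Plpp3 at 0.54 (adjusted p = 0.017) and Fgfr3 at -0.55 (adjusted p = 0.024), and so was Ndrg2 at 0.55 (adjusted p = 0.039). In that fit 0.694% of all genes were called. In experiment 2, the effect of bryostatin with IL-4 over its effect alone gave 0 calls among 37 members and in 0% of all genes. There 1 member of 37 and 327 of 15604 genes had an unadjusted p under 0.05, and DESeq2 called 0 members. The median difference of the members was 0.19, against 0.018 over all genes.

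IL-4 against untreated glia gave no called member of 37 (0 higher, 0 lower), while 0.0833% of all genes were called lower and 0.5% higher, and DESeq2 also called 0 members. At an unadjusted p under 0.05 there were 16 of 37 members and 1666 of 15604 genes, and the median was -0.31 against -0.029 over all genes. The untreated library labelled replicate 1 was the outlying one for Tril, which had 5.69, 7.82 and 5.8 CPM with IL-4, against 40.7, 6.64 and 7.52 CPM in untreated glia. Tril was chosen after its values were seen. Without that library the members' median was -0.09, with 0 calls. Without it and replicate 2 of both bryostatin groups, Slc4a4 was called higher at 0.27 (adjusted p = 0.037).

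Marker sums of other cell types beside the bryostatin results were as follows. Microglia markers summed to 2337 to 3588 CPM with bryostatin alone, against 2461 to 3176 CPM in untreated glia, and to 2940 to 3730 CPM with IL-4 and bryostatin, against 2038 to 2893 CPM with IL-4. They summed to 936 to 1060 CPM with LPS and bryostatin, against 1280 to 1394 CPM with LPS, and to 775 to 1002 CPM with LPS, IFN-gamma and bryostatin, against 991 to 1139 CPM without bryostatin. Of the 16 markers, 6 were called lower with LPS and 4 with LPS and IFN-gamma, while with IL-4 3 were called higher and 1 lower. Of all genes, 3.55% were called lower and 3.35% higher with LPS, 1.58% and 1.8% with LPS and IFN-gamma, and 1.42% and 2.7% with IL-4. Ependymal markers summed to 162 to 251 CPM with bryostatin alone, against 266 to 925 CPM in untreated glia, and to 346 to 383 CPM with LPS, IFN-gamma and bryostatin, against 439 to 514 CPM without bryostatin. Neural progenitor markers summed to 5029 to 5357 CPM with LPS and bryostatin, against 3731 to 3966 CPM with LPS, and to 5001 to 5687 CPM with LPS, IFN-gamma and bryostatin, against 4031 to 4560 CPM without bryostatin. With IL-4 and bryostatin they summed to 8353 to 9156 CPM, against 7650 to 7838 CPM with IL-4. Ependymal sums were 462 to 484 CPM with LPS and bryostatin, against 518 to 540 CPM with LPS, and 166 to 198 CPM with IL-4 and bryostatin, against 250.5 to 304 CPM with IL-4. Neuron markers summed to 388 to 402 CPM with LPS and bryostatin, against 293 to 309 CPM with LPS, and to 427 to 445 CPM with LPS, IFN-gamma and bryostatin, against 372 to 386 CPM without bryostatin, with 3 of 9 called higher in each. With bryostatin alone they summed to 361 to 382 CPM, against 342 to 357 CPM in untreated glia. Oligodendrocyte precursor markers summed to 528 to 559 CPM with LPS and bryostatin, against 564 to 601 CPM with LPS, and to 270.4 to 289 CPM with LPS, IFN-gamma and bryostatin, against 260 to 269 CPM without bryostatin. Sums of oligodendrocyte, endothelial, and mural and fibroblast markers overlapped between the groups in all 4 settings. The part of these cell types in the members' values was not tested.

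Other astrocyte genes were also lower more often than higher. Of 30 further astrocyte genes 29 were tested. LPS lowered 17 and raised 4, LPS with IFN-gamma lowered 23 and raised 3, and LPS with IFN-gamma against LPS lowered 19 and raised 5. Of all genes, 18.8%, 28.6% and 16.8% were called lower and 19.5%, 29.5% and 19.2% higher, in that order. Slc39a12, a zinc transporter, averaged 25.8 ± 0.93 CPM with LPS and 11.4 ± 0.75 CPM with LPS and IFN-gamma, against 222 ± 8.68 CPM in untreated glia (log2 fold changes of -3.11 ± 0.08 and -4.28 ± 0.08). Glul, the glutamine synthetase that detoxifies glutamate and ammonia, averaged 174 ± 10.5 CPM with LPS and IFN-gamma, against 706 ± 17.8 CPM with LPS (-2.02 ± 0.08, adjusted p = 3.5e-11). Bryostatin lowered 9 and raised 0 of the 29 when given alone and likewise 9 and 0 with IL-4, lowered 11 and raised 1 with LPS, and lowered 9 and raised 2 with LPS and IFN-gamma. Of all genes it lowered 1.51%, 1.42%, 3.55% and 1.58% and raised 2.11%, 2.7%, 3.35% and 1.8%, in that order. Aqp4 averaged 451 ± 128 CPM with bryostatin alone, against 869 ± 77.4 CPM in untreated glia (-0.95 ± 0.18, adjusted p = 0.018), and 254 ± 19.2 CPM with LPS, IFN-gamma and bryostatin, against 616 ± 77.9 CPM without bryostatin (-1.28 ± 0.13, adjusted p = 3.7e-05). IL-4 alone gave 0 calls among the 29, while 0.0833% of all genes were called lower and 0.5% higher.

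Pathways around single members were read from further lists, whose counts stand beside the shares of all genes given above for each comparison: 18.8% lower and 19.5% higher with LPS, and 28.6% lower and 29.5% higher with LPS and IFN-gamma. Bryostatin's shares, in either direction, were 3.62% alone, 4.13% with IL-4, 6.89% with LPS and 3.38% with LPS and IFN-gamma. For thyroid hormone, around Dio2, LPS lowered the importer Slco1c1 (-2.19 ± 0.32), the receptor Thrb (-1.25 ± 0.14) and the inactivating deiodinase Dio3 (-1.02 ± 0.32), and of the 7 genes 1 was called higher and 4 lower. Hr, a corepressor of the thyroid hormone receptor, fell with bryostatin alone to 24 ± 2.65 CPM, against 58.6 ± 7.76 CPM in untreated glia (-1.29 ± 0.13, adjusted p = 6e-04). With IL-4 it averaged 20.4 ± 0.73 CPM with bryostatin, against 51.2 ± 5.57 CPM without it (-1.32 ± 0.13, adjusted p = 0.00045), in each case the 1 call of 7. Among 16 genes of the Notch pathway, which drives Hes5 and holds back differentiation, LPS lowered 7 and raised 3 and LPS with IFN-gamma lowered 8 and raised 2. The Notch target Hey1 averaged 78.8 ± 0.44 CPM with LPS and 42.9 ± 6.05 CPM with both agents, against 149 ± 23.6 CPM in untreated glia. Bryostatin gave 0 calls among them except 1 lower with LPS. Of 10 BMP pathway and Id genes, the family of Id4, 3 fell with LPS and 6 fell and 1 rose with LPS and IFN-gamma, among them Smad9 (-1.64 ± 0.13 and -2.21 ± 0.14). Id2 averaged 125 ± 3.67 CPM with LPS, against 262 ± 12.9 CPM in untreated glia (-1.08 ± 0.07, adjusted p = 5e-09), and 219 ± 12.3 CPM with LPS and IFN-gamma, which is 0.81 ± 0.07 above LPS on the log2 scale. Of 9 genes of FGF signalling beside Fgfr3, 5 fell with LPS and 7 with LPS and IFN-gamma, with 0 higher, and bryostatin gave 0 calls in all 4 settings. Of the 7 thyroid hormone genes, bryostatin lowered 1 with LPS, and raised 1 and lowered 1 with LPS and IFN-gamma. Of the 10 BMP pathway and Id genes it raised 1 with LPS and lowered 1 with IL-4. At bryostatin's low shares of all genes, 0 or 1 call does not set lists this short apart from other genes. The 2 calls of 7 thyroid hormone genes were not tested against that share.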

How the data were processed

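Per the submitters' processing notes, reads were handled with fastp, STAR and featureCounts on mm10; versions are not given in the sources used here. Per the labels' protocols, the library kit selects polyadenylated RNA and keeps no strand, so strand does not tell reads of overlapping genes apart. The authors deposited a table of raw counts (whole numbers of reads per gene, no normalization), on which all tests rest. The authors' deposited FPKM equal counts over gene length and library total times a constant per library of 0.901 to 1.19, and served only to rank levels per length.

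Each experiment had its own fit. After filterByExpr and TMM, edgeR 4.0.16 (R 4.3.3) gave a robust quasi-likelihood F test per gene. Benjamini-Hochberg adjustment covered every gene tested, and genes were called at an adjusted p under 0.05. The code was tested on simulated data. Comparisons were 8 group pairs and 2 differences of bryostatin's effect. Folds are log2 fold changes ± SE, and levels CPM with n = 3 libraries per group. Nothing in the labels ties a replicate to a culture or an animal of its own, and p-values therefore reflect spread among libraries, which may be technical. No replicate pair matched within sampling noise (smallest chi-square per degree of freedom 2.8).

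The members and gene lists were chosen with earlier results of these data known. Per comparison, library values, SE and adjusted p are given for up to 4 called members with the largest rise and up to 4 with the largest fall, where the higher group averaged 5 CPM or more, and for the members of highest and lowest level. Genes of other lists were taken by size of change, up to 4 per list and comparison, and some are left out for length. Any member may also be named with its fold change and call, called or not. Library values of members outside this rule, such as Aldh1l1 where it was not called, were picked after seeing them. A motif that was searched and a gene of a list are not reported here. Alternatives were other scaling, DESeq2 1.42.0, no filter, other sets of libraries, leaving each library out, and a block for the replicate number; leaving untreated replicate 1 out of fits of comparisons that do not use it was added after seeing the data. The 3 libraries of experiment 2 that were left out together were picked by their values and not by their labels. Promoters came from RefSeq. Plots were drawn with matplotlib 3.10.9.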

Additional observations from a re-analysis of the deposited data

How the results depend on the processing

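Called values of members numbered 111 over the comparisons, and 1507 alternative values were computed for them: 1258 kept direction and call, 248 lost the call and 1 changed sign (Plpp3 for LPS with IFN-gamma over LPS, -0.031 with library totals). The call held in every alternative for 65 of 111, and DESeq2 kept all 111. Library totals moved the median of all genes for LPS with IFN-gamma over untreated to -0.338 and over LPS to -0.243, for LPS over untreated to -0.104; members' medians were then -1.282 and -0.74 for the first and second, with 1 member higher in each, and 0 higher for bryostatin alone. DESeq2 size factors gave 2 higher for bryostatin alone. DESeq2 gave 2 higher and 22 lower for bryostatin alone, 2 and 13 with IL-4, and 1 and 1 for the difference in experiment 1. It called 8.57%, 7.77% and 0.591% of all genes there, against 3.62%, 4.13% and 0.118% in the main fits. With no filter the difference in experiment 1 had 1 higher, while 0.187% of all genes were called. All 27 libraries in 1 fit gave 1 higher for LPS with IFN-gamma over untreated and over LPS, 2 lower for bryostatin with LPS and with LPS and IFN-gamma, 2 higher and 23 lower for bryostatin alone, and 2 and 13 with IL-4. In these comparisons 52.9%, 30.5%, 4.55%, 2.2%, 9.3% and 7.96% of all genes were called, in that order. The main fits called 58.1%, 36%, 6.89%, 3.38%, 3.62% and 4.13%. Fits of only the groups compared gave 1 higher for LPS with IFN-gamma over untreated, 4 higher and 25 lower for bryostatin with LPS, 2 higher for the difference in experiment 1, 0 and 0 for bryostatin alone and 2 and 22 with IL-4. In these comparisons 48.6%, 22%, 0.714%, 0.06% and 17.9% of all genes were called, in that order. The main fits called 58.1%, 6.89%, 0.118%, 3.62% and 4.13%. Without untreated replicate 1 in the fit, bryostatin gave 19 lower with LPS, 1 higher and 16 lower with LPS and IFN-gamma, a difference of 2 higher and 1 lower, and 2 and 18 with IL-4. There 13.1%, 8.41%, 0.694% and 8.54% of all genes were called, in that order. With 3 libraries out in experiment 2, bryostatin alone gave 3 higher and 24 lower, IL-4 1 higher, and bryostatin with IL-4 2 and 21. There 14.5%, 2.12% and 18.7% of all genes were called, in that order. The cause of these moves was not tested.

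Whether replicate numbers pair the libraries was not settled. Same-numbered libraries of different groups had deviations correlated at -0.452 to 0.47 in experiment 1 (5 of 30 pairs over 0.1). In experiment 2 the range was -0.602 to 0.692 (8 of 18 pairs over 0.1). The median was 0.02 in experiment 1, against 0.006 for pairs of other numbers, and 0.055 against -0.025 in experiment 2. Of the libraries, 8 of 15 and 7 of 12 correlated best with their own number. With the replicate block, 3 members were lower for bryostatin with LPS and IFN-gamma, and 7 lower and 0 higher for bryostatin alone. There 2.89% and 2.7% of all genes were called, against 3.38% and 3.62% without the block.

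Leaving out each library of the compared groups in turn gave these ranges of members called and of the median log2 fold change. They were 3 to 5 higher, 17 to 27 lower and a median of -0.508 to -0.378 for LPS over untreated, 1 to 5 higher, 25 to 32 lower and a median of -1.069 to -0.886 for LPS with IFN-gamma over untreated, 1 to 3 higher, 17 to 18 lower and a median of -0.55 to -0.463 for LPS with IFN-gamma over LPS. They were 1 higher, 2 to 4 lower and a median of -0.358 to -0.304 for bryostatin with LPS, 0 higher, 1 to 4 lower and a median of -0.312 to -0.223 for bryostatin with LPS and IFN-gamma, 0 higher, 0 lower and a median of -0.013 to 0.054 for the difference in experiment 1. In experiment 2 they were 0 to 1 higher, 1 to 18 lower and a median of -0.771 to -0.363 for bryostatin alone, 0 higher, 0 lower and a median of -0.382 to -0.087 for IL-4 over untreated, 0 to 1 higher, 1 to 3 lower and a median of -0.43 to -0.324 for bryostatin with IL-4, 0 higher, 0 lower and a median of 0.006 to 0.285 for the difference in experiment 2. The share of all genes called moved in these fits too. It was 31% to 42.8% for LPS over untreated and 51.8% to 60.9% for LPS with IFN-gamma over untreated. For LPS with IFN-gamma over LPS it was 28.1% to 31.9%. It was 1.18% to 5.16% for bryostatin alone and 0.414% to 0.602% for IL-4.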
